A study of Homo sapiens with 8 samples.

Results

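Complement transcripts, transcripts of complement regulators and the PTX3 transcript were followed through the adriamycin (ADR, doxorubicin) response of MCF10A cells with and without p53. The 9 genes were C3, CFB, CFI, C1R, C1S, CD46, CD55, CD59 and PTX3, of 20296 genes with a named probe on the array, of which 15811 had a signal well above background on at least 1 array. They were chosen for their roles in complement with earlier results of the same arrays in view, so their differences are given as descriptions, without a test. Each gene was read from 1 probe, the one with the highest mean level over the 8 arrays. All 9 were well above background on at least 1 array, and every one except CFI was so on all 8.

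MCF10A is an immortalized, non-tumorigenic line of human mammary epithelial cells with basal features. RNA came from MCF10A p53+/+ cells and from a p53-/- derivative of the line, harvested untreated (0 h) or at 12, 24 and 48 h after ADR, an intercalating drug that traps topoisomerase II and breaks DNA. The labels give an exposure of 2 h to 0.5 µg/ml, and the methods of the paper give a higher dose. How the p53-/- derivative was made, and whether it is 1 clone, is not given in the sources used here. Each of the 2 genotypes and 4 time points had 1 single-colour Agilent array, so no value has a replicate error. The HCT116 arrays of the study were not analysed here.

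Complement is a cascade of plasma proteins that marks surfaces for uptake and can end in a pore in the membrane. The classical pathway starts when C1q binds a target and the proteases C1r and C1s cleave C4 and C2. The alternative pathway keeps itself going through C3b and factor B (CFB), and all pathways meet at C3. Host cells are protected by factor I (CFI), which cuts C3b and C4b with the help of cofactors such as CD46, by CD55, which breaks up the convertases, and by CD59, which blocks the pore. PTX3, the long pentraxin, is a soluble pattern recognition molecule that binds C1q and factor H, and it is made by many cells in response to inflammatory cytokines. The liver makes most plasma complement, but epithelial cells also make C3, factor B, C1r and C1s.

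Levels below are log2 processed signals relative to the 75th percentile of the array, so that 0 is the level of that percentile and a step of 1 is a 2-fold step. Rose and fell are written only of differences that reached 2-fold, and smaller differences are given as values. The technical SD beside a difference came from 999 probes printed in 10 spots at the same signal level, and covers the printing and scanning of spots only.

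The 75th percentile signal lay between 661 and 1015 on the p53+/+ arrays and between 879 and 1199 on the p53-/- arrays, and 49.8 to 62.9% of probes were well above background. The array labelled p53+/+ 0 h read close to the p53-/- arrays at genes that part treated p53+/+ from p53-/- cells. Of 390 genes at least 4-fold apart between all 3 treated p53+/+ arrays and all 4 p53-/- arrays, 4 lay nearer to the treated p53+/+ level on it. With the p53-/- level set to 0 and that of treated p53+/+ cells set to 1, they lay at a median of -0.02 on this array. These genes were chosen on treated p53+/+ arrays against all p53-/- arrays, so a wrong label and a p53+/+ culture before treatment cannot be told apart by them. CDKN1A, the p53 target that codes for p21, was at -1.14 on this array, above the -2.97 of the p53-/- 0 h array, at 2.54 to 2.70 on the treated p53+/+ arrays and at -0.96 to -0.48 on the treated p53-/- arrays. Comparisons of treated p53+/+ with treated p53-/- cells do not use the array in doubt, and each change from 0 h is given with that in mind. The p53+/+ 48 h array had 0 of 10 spike-in probes well above background, against 6 on each other array. Genotype and place on the slide cannot be told apart.

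The markers of a mammary basal epithelial cell were present, with 7 of 8 markers well above background on all arrays and TP63 on 3 arrays. Of 8 hepatocyte markers 5 were above background on at least 1 array and 0 on all, with 0 to 5 above it on an array and a summed level of -2.78 to -1.41. Of the leukocyte list PTPRC, CD14 and CSF1R read above background on all 8 arrays while CD163 did so on none. Fibroblast markers differed between the groups. Their summed level was 5.77 on the array labelled p53+/+ 0 h, 2.12 to 2.40 on the treated p53+/+ arrays and 5.71 to 6.07 on the p53-/- arrays. DCN, the proteoglycan decorin, carried nearly all of that level. COL1A2, COL3A1 and THY1 were not above background on any array.

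RefSeq start sites on GRCh38.p14 gave a window of 250 bases upstream for 7 of the 9 genes, and C3 and C1S had none. The windows of PTX3, CFI and CD46 are shown because these genes were the ones past 2-fold at all 3 treated times within a genotype, and that of CFB because it moved with C3. Each reads 5′ to 3′ in the direction of the gene and ends at the base before the start. Capitals mark a match to a motif that was searched on both strands. PTX3 (chr3:157436600-157436849, plus strand) held overlapping NF-kB matches, 1 on each strand, from bases 97 to 87 before the start. CFB (chr6:31945845-31946094, plus strand) held a match to the interferon regulatory factor motif GAAANNGAA on the minus strand, at bases 139 to 131. CFI (chr4:109802000-109802249, minus strand) held a p53 half-site at bases 211 to 202. CD46 (chr1:207751788-207752037, plus strand) held none of the motifs.
PTX3: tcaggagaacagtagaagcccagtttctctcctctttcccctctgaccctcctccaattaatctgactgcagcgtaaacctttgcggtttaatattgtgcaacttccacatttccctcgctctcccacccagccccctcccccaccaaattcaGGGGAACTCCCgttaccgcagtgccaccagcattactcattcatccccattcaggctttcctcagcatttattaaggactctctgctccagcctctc
CFB: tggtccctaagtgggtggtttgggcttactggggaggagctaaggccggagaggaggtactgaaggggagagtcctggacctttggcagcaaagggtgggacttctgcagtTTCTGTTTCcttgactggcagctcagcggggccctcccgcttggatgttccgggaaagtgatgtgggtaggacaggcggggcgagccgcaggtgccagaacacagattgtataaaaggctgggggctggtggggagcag
CFI: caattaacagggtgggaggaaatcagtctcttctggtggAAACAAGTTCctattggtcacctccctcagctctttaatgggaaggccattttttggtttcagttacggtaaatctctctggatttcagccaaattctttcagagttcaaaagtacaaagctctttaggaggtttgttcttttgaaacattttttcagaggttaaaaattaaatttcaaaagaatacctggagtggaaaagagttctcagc
CD46: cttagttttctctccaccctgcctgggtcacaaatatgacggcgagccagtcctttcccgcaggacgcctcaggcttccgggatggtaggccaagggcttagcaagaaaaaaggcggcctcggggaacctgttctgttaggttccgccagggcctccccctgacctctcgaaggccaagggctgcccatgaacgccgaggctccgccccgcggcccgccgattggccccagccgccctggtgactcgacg
The NF-kB motif was in 5.21% of 35116 windows of the same length, GAAANNGAA in 6.88%, the p53 half-site in 5.57% and the AP-1 motif TGANTCA in 6.57%. Of 4 CD59 windows, 1 held a p53 half-site and 1 held AP-1 matches at bases 117 to 111 and 23 to 17, while the windows of CD55 and C1R held none of the motifs. A match is a run of letters and was not tested as a binding site.

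C3, the protein on which all pathways meet, rose late in both genotypes. It was at 4.10 on the array labelled p53+/+ 0 h and at 4.14, 5.40 and 6.24 at 12, 24 and 48 h in p53+/+ cells. In p53-/- cells it was at 4.26, 3.82, 4.64 and 5.29. The highest value of each genotype was thus at 48 h, and the lowest of all 8 was at 12 h without p53. The change from 0 h to 48 h was 2.14 (technical SD 0.059, 4.40-fold) in p53+/+ cells and 1.03 (0.061, 2.05-fold) in p53-/- cells. At 24 h the p53+/+ change was 1.29, already past 2-fold, and the p53-/- change was 0.38.

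CFB, the protease of the alternative pathway convertase, followed the same course at every step. Its levels were -1.17, -1.16, -0.30 and 0.57 with p53 and -1.37, -1.70, -0.87 and -0.36 without. At 48 h the change was 1.74 (technical SD 0.082, 3.33-fold) with p53 and 1.01 (0.088, 2.02-fold) without. Both 48 h changes without p53 lay at the edge of the rule, and with the array median in place of the 75th percentile they were 0.93 for C3 and 0.91 for CFB. Over the 8 arrays the log2 levels of C3 and CFB had a Pearson r of 0.99, the highest that either gene had with any of the 11828 genes above background on all arrays.

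At matched times C3 was higher with p53 by 0.32, 0.76 and 0.95 at 12, 24 and 48 h, and CFB by 0.54, 0.56 and 0.93, so neither reached 2-fold. These differences rested on the scaling. Without scaling the 48 h difference was 0.09 for C3 and 0.07 for CFB, the 75th percentile signal being 661 on the p53+/+ 48 h array and 1199 on the p53-/- one. Measured from the p53-/- 0 h array, the p53+/+ levels of C3 were -0.12, 1.14 and 1.98 higher at the 3 times, and those of CFB 0.21, 1.06 and 1.94 higher, so the late rise in p53+/+ cells did not rest on the array in doubt. A second C3 probe gave 1.78 with p53 and 1.14 without at 48 h, and a matched difference of 0.49 in place of 0.95. CFB had 1 probe.

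**Figure D1:**
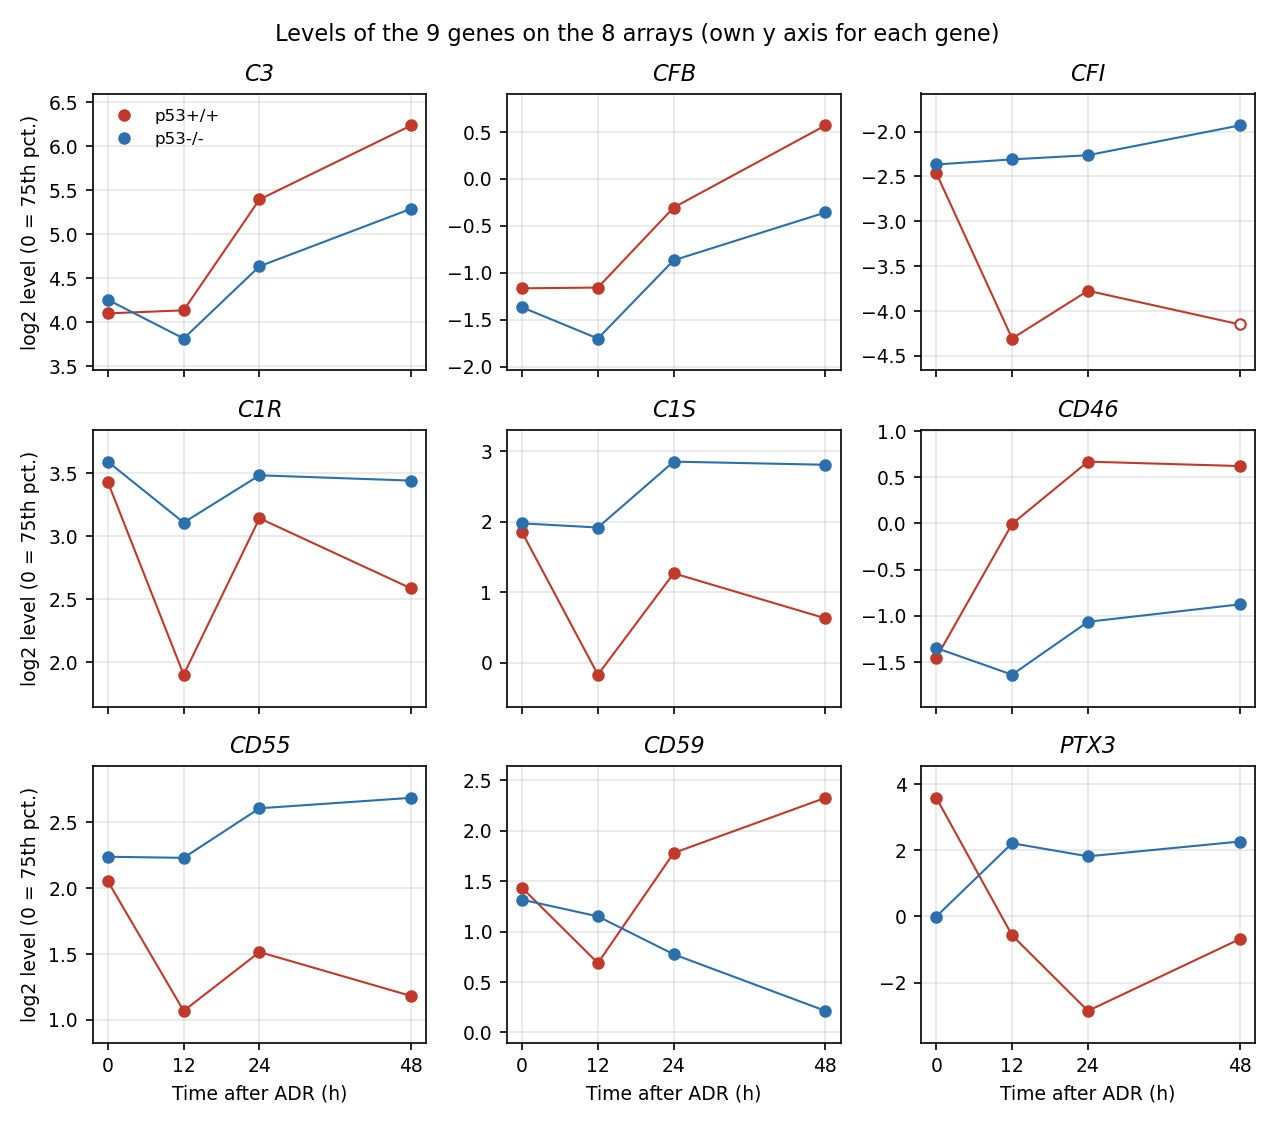
Levels of the 9 genes at 0, 12, 24 and 48 h after ADR, as log2 signal with 0 at the 75th percentile of the array, 1 array per point, with p53+/+ arrays in red and p53-/- arrays in blue and an own y axis for each gene. C3 and CFB end highest at 48 h in both genotypes, CD46 separates the genotypes from 12 h on, and the PTX3 lines cross after 0 h; the open circle marks CFI at 48 h in p53+/+ cells, not well above background, and the point at p53+/+ 0 h is the array in doubt.

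The classical pathway proteases were lower after ADR in p53+/+ cells, though not by 2-fold at every time. C1S, which cleaves C4 and C2, was at 1.85 on the array labelled p53+/+ 0 h and at -0.17, 1.27 and 0.63 after ADR in p53+/+ cells. Without p53 it was at 1.98, 1.92, 2.85 and 2.81. Each treated p53+/+ value lay below all 4 p53-/- values. At matched times C1S was lower with p53 by 2-fold or more at every time, with differences of -2.09 (technical SD 0.077), -1.58 (0.073) and -2.18 (0.071), or 4.25-, 2.99- and 4.52-fold.

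Within p53+/+ cells C1S fell 4.05-fold at 12 h and 2.33-fold at 48 h (-2.02 and -1.22), whereas the 24 h change of -0.58 stayed inside 2-fold. In p53-/- cells the changes were -0.06, 0.87 and 0.83. The second C1S probe passed 2-fold at 24 and 48 h without p53, at 1.08 and 1.19.

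C1R, which activates C1s, was at 3.43, 1.90, 3.14 and 2.59 with p53 and at 3.59, 3.11, 3.48 and 3.44 without. It shared the dip at 12 h and the return at 24 h with C1S in p53+/+ cells. Its p53+/+ changes were -1.53 (technical SD 0.098, 2.89-fold lower), -0.29 and -0.84, and its changes without p53 were -0.48, -0.11 and -0.15. At matched times it was lower with p53 by 2.31-fold at 12 h (-1.21), and the differences of -0.34 and -0.86 at 24 and 48 h did not pass the rule. The second C1R probe gave -1.60, -0.60 and -1.59, so the probes differed on whether the 48 h difference passed 2-fold. They also differed on the p53+/+ change at 48 h, which was -1.40 by the second probe. With median scaling the chosen probe gave -1.01 for that change. The chosen C1R probe had 1 spot per array. C1R and C1S are neighbours on chromosome 12 with 0 protein-coding genes between them, and their levels had r = 0.91 over the 8 arrays.

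CFI, the soluble protease that inactivates C3b and C4b, was the one gene of the 9 that was not well above background on every array. It was at -2.46 on the array labelled p53+/+ 0 h and at -4.31, -3.77 and -4.15 after ADR with p53, the last of these not well above background. Without p53 it stayed between -2.37 and -1.93. The treated p53+/+ arrays thus lay below all other arrays. CFI fell with p53 by 3.59-fold at 12 h (-1.84, technical SD 0.22), by 2.48-fold at 24 h (-1.31) and by 3.22-fold at 48 h (-1.69). The 48 h fold was taken against a reading not well above background and is no lower limit. The changes without p53 were 0.06, 0.10 and 0.43.

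At matched times CFI was lower with p53 by 3.99-fold at 12 h (-1.996), 2.85-fold at 24 h (-1.51) and 4.65-fold at 48 h (-2.22). The 48 h fold again used the reading not well above background. Under normexp background correction these differences were -0.97, -0.67 and -0.98, and the p53+/+ changes -0.82, -0.56 and -0.55, so the direction was the same and the 2-fold calls were lost at all 3 times. The second CFI probe was above background on the 4 p53-/- arrays alone.

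The membrane regulators did not move together. CD46, the cofactor with which factor I cleaves C3b, rose in p53+/+ cells at every time. It was at -1.45 on the array labelled p53+/+ 0 h and at -0.00, 0.67 and 0.62 at 12, 24 and 48 h. Without p53 it was at -1.35, -1.64, -1.06 and -0.87. All 3 treated p53+/+ values lay above the other 5 arrays, and the array labelled p53+/+ 0 h lay among the p53-/- values.

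The rise of CD46 with p53 was 2.73-fold at 12 h (1.45, technical SD 0.088), 4.35-fold at 24 h (2.12) and 4.21-fold at 48 h (2.07). The largest change without p53 was 0.47, at 48 h. At matched times CD46 was higher with p53 by 3.097-, 3.32- and 2.82-fold (1.63, 1.73 and 1.496). Without scaling the 48 h difference was 0.64 and no longer 2-fold, while those at 12 and 24 h remained past it at 1.18 and 1.25.

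CD55, the decay-accelerating factor, had the opposite order. It was at 2.05, 1.07, 1.52 and 1.18 with p53 and at 2.24, 2.23, 2.61 and 2.69 without, so that each treated p53+/+ value was below all p53-/- values. At matched times it was lower with p53 by 2.24-, 2.13- and 2.83-fold (-1.16, -1.09 and -1.503, technical SD 0.072 to 0.073). No change from 0 h passed 2-fold in either genotype, the p53+/+ changes being -0.98, -0.54 and -0.87 and those without p53 -0.01, 0.37 and 0.45. The first and last p53+/+ changes were near the rule and came to -1.16 and -1.03 with median scaling. CD46 and CD55 lie on chromosome 1 with 3 protein-coding genes between them, among these the complement receptor genes CR1 and CR2, and over the 8 arrays their levels had r = -0.77.

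CD59, which stops the membrane attack complex from closing its pore, parted late. It was at 1.44, 0.69, 1.78 and 2.33 in p53+/+ cells and went down step by step without p53, at 1.32, 1.15, 0.78 and 0.21. The highest and the lowest CD59 values of the series were therefore the 48 h arrays of the 2 genotypes. At 48 h CD59 was 4.33-fold higher with p53 (2.11, technical SD 0.073), and at 24 h 2.01-fold higher (1.01). The 12 h difference was -0.46.

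The 24 h difference of CD59 was at the edge of the rule and was 0.91 with median scaling, 0.52 without scaling, 0.96 with quantile normalization and 0.98 with normexp correction. Within p53-/- cells CD59 fell 2.15-fold by 48 h (-1.10), a fall that was -0.66 without scaling. The p53+/+ changes of -0.75, 0.35 and 0.89 did not pass 2-fold.

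**Figure D2:**
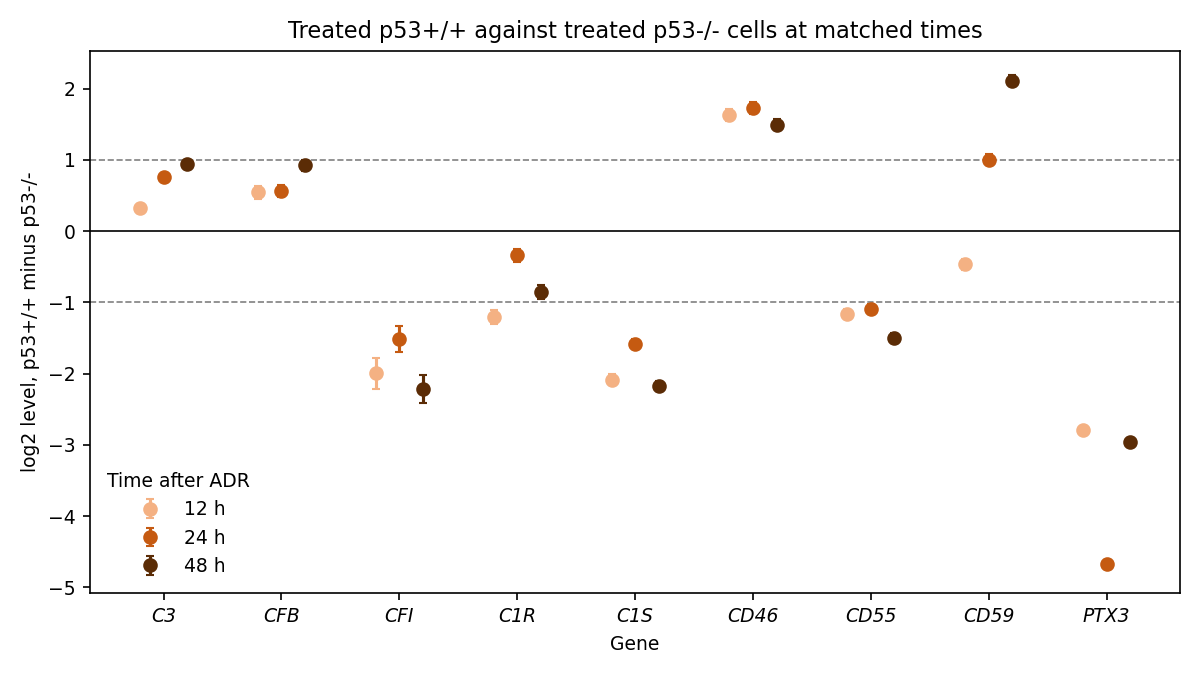
Difference in log2 level between treated p53+/+ and treated p53-/- cells for each gene at 12, 24 and 48 h, 1 array against 1 array per point, with bars of 1 technical SD and dashed lines at the 2-fold rule. CD46 lies above the upper line at all 3 times, CFI, C1S, CD55 and PTX3 lie below the lower line at all 3, and CD59 goes from -0.46 to 2.11.

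PTX3 had the widest range of the 9 genes, 6.44 log2 units over the 8 arrays, at the 98.8th percentile of ranges over all genes tested, whose median was 1.31. The ranges of the other 8 genes were 1.62 to 3.02, between the 61.7th and 86.9th percentiles. PTX3 was at 3.59 on the array labelled p53+/+ 0 h and at -0.57, -2.86 and -0.69 after ADR with p53. Without p53 it was at -0.00 at 0 h and at 2.21, 1.82 and 2.26 after ADR. The treated arrays of the 2 genotypes did not overlap, with all p53+/+ values below and all p53-/- values above the p53-/- 0 h value.

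The PTX3 probe was printed in 10 spots, which gave the most closely measured values here. The SD between spots of an array was 0.06 to 0.20 and the range of spots at most 0.50. At matched times PTX3 was lower with p53 by 6.90-fold at 12 h (-2.79, technical SD 0.034), 25.5-fold at 24 h (-4.67, 0.056) and 7.74-fold at 48 h (-2.95, 0.034). Without p53 PTX3 rose 4.65-, 3.53- and 4.82-fold over 0 h (2.22, 1.82 and 2.27).

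**Figure D3:**
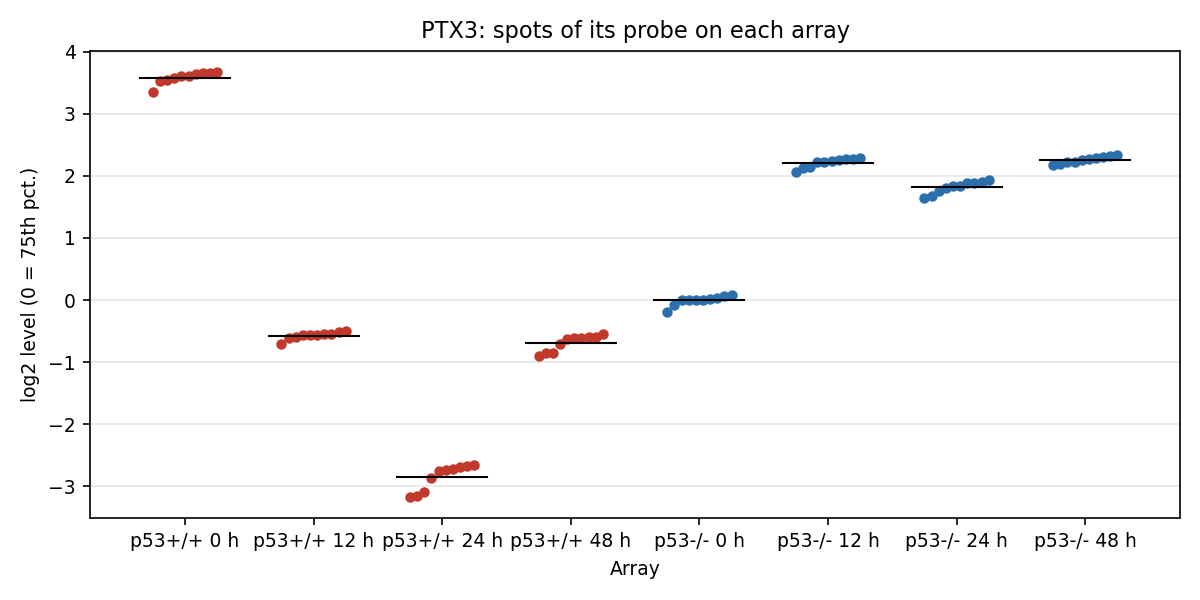
Log2 level of each spot of the PTX3 probe on each array (0 is that array's 75th percentile), with p53+/+ arrays in red, p53-/- arrays in blue and the mean as a line; within an array the spots are ordered by value. The spots of an array span at most 0.50, against a range of 6.44 between array means.

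The change of PTX3 within p53+/+ cells depended on the 0 h array. From the array labelled p53+/+ 0 h the changes were -4.16, -6.44 and -4.28, or 17.9-, 87.1- and 19.4-fold lower. From the p53-/- 0 h array they were -0.57, -2.85 and -0.68, so that of the 3 times only 24 h remained past 2-fold. PTX3 was also the one gene of the 9 that differed between the 0 h arrays, where it was 12.0-fold higher on the array labelled p53+/+ (3.59). The other 8 genes differed there by -0.19 to 0.20.

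Counted over the 9 genes, 1 (CD46) rose at all 3 times in p53+/+ cells, against 9.53% of all 15811 genes tested, and 2 (CFI and PTX3) fell, against 6.39%. In p53-/- cells 1 (PTX3) rose at all 3 times, against 3.21%, and 0 fell, against 2.04%. Between treated genotypes 1 (CD46) was higher with p53 at all 3 times, against 6.75%, and 4 (CFI, C1S, CD55 and PTX3) were lower, against 5.92%. Between the 0 h arrays 1 (PTX3) was higher on the one labelled p53+/+, against 4.25% of all genes, and 0 were lower, against 5.38%. At 48 h alone 3 genes (C3, CFB and CD46) were above 0 h with p53, against 19.0%, and 3 (C3, CFB and PTX3) without p53, against 14.9%. As the genes were selected on results of these arrays, nothing is read from these counts beyond the description.

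The median difference of the 9 genes between treated genotypes was -1.16, -0.34 and -0.86 at 12, 24 and 48 h, beside 0.09, -0.03 and 0.10 over all genes tested. In p53+/+ cells the median change was -0.98, -0.29 and -0.84, beside 0.06, -0.04 and 0.16. In p53-/- cells it was -0.17, 0.37 and 0.47, beside -0.02, 0.01 and 0.07. In p53+/+ cells and between treated genotypes, a median hides the opposite signs of C3, CFB and CD46 on one side and C1S, CD55 and PTX3 on the other. In p53-/- cells the changes of these genes were all positive at 24 and 48 h.

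**Figure D4:**
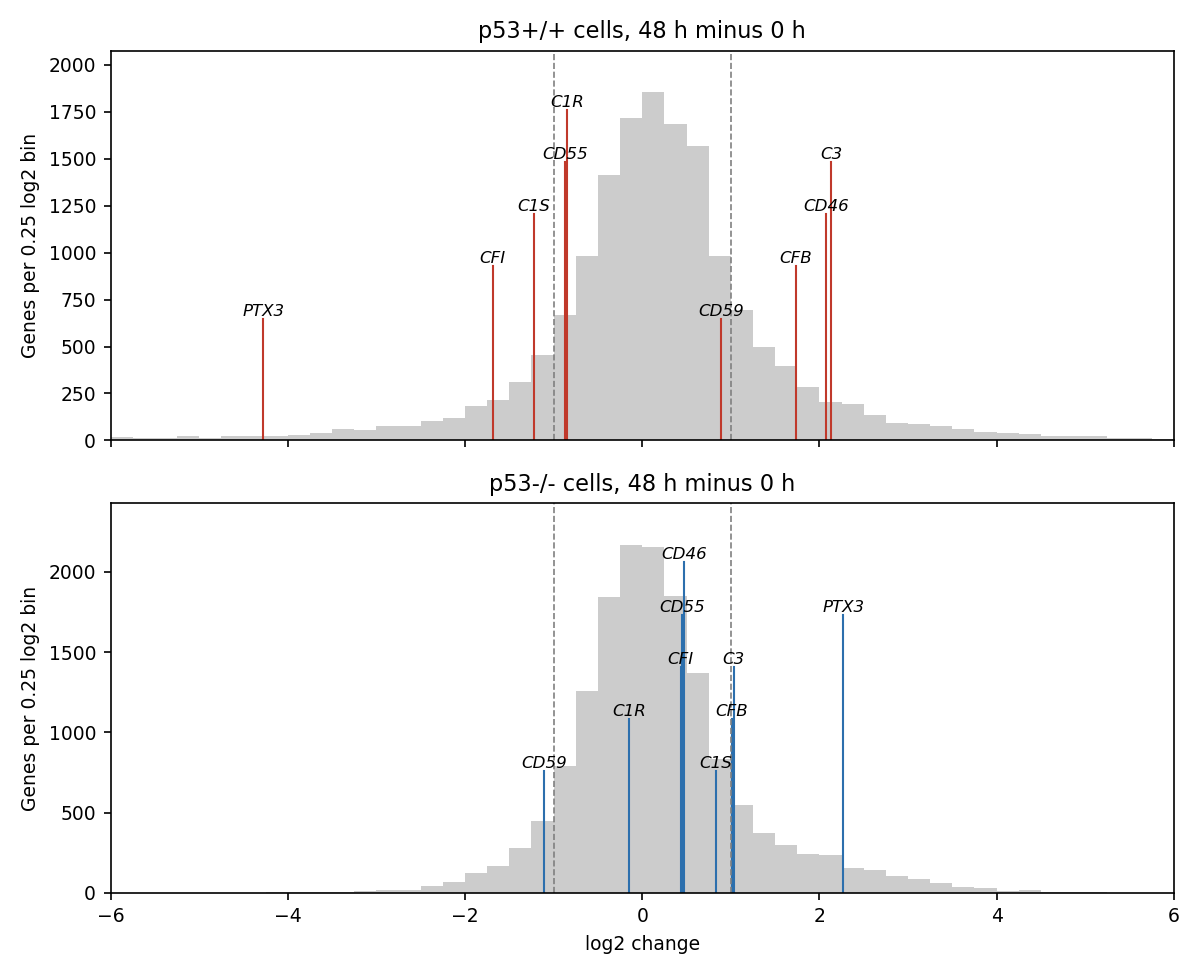
Number of genes per bin of 0.25 in log2 change from 0 h to 48 h over all 15811 genes tested (grey, changes beyond 6 in size not drawn), in p53+/+ cells above and p53-/- cells below, with the 9 genes as coloured lines whose height carries no value and dashed lines at the 2-fold rule. PTX3 lies at -4.28 in the upper panel and at 2.27 in the lower, and C3 and CFB lie on the right in both.

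Genes with a second probe allowed a check of the reading. Of the differences past 2-fold between groups or from 0 h, 6 were measured by a second probe well above background on both arrays. All 6 had the same sign and were past 2-fold by the second probe, and the largest gap between the probes was 0.40. Differences inside 2-fold by the chosen probe were not part of this check, and some had larger gaps. For C1R at 48 h the matched difference was -1.59 by the second probe against -0.86. The C1R change with p53 at 48 h was -1.40 by the second probe against -0.84.

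The fibroblast markers moved with the lower readings of treated p53+/+ cells. DCN was at 5.75 on the array labelled p53+/+ 0 h, at 2.09, 2.28 and 2.37 on the treated p53+/+ arrays and at 5.70 to 6.07 without p53. COL1A1, DCN, LUM and PDGFRB were at least 2-fold lower with p53 at all 3 matched times, beside 5.92% of all genes tested. PDGFRB was not above background on the p53-/- 48 h array. On each treated p53+/+ array 1 of 8 fibroblast markers was above background, against 4 or 5 on the treated p53-/- arrays. C1S, CD55, CFI and PTX3 were low on the same 3 arrays. The basal epithelial list was at a summed level of 8.79 to 9.23 on these arrays, against 7.46 to 8.12 on the p53-/- arrays. Of its 8 markers 4 (KRT5, KRT14, KRT17 and CDH1) were at least 2-fold higher with p53 at all 3 times, as CD46 was. The share of all genes tested was 6.75%. The part of either list in these results was not tested. In bulk RNA fewer cells of a type and less RNA per cell cannot be told apart.

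Other complement and pentraxin genes were read from a list of 57, of which 56 had a probe, 33 were well above background on at least 1 array and 14 on all. C1QA, C1QB and C1QC, the subunits of the recognition molecule of C1, and MASP1, MASP2 and MBL2 of the lectin pathway were not above background on any array. In p53+/+ cells 3 of the 33 rose at all 3 times (C4B, ITGAM and THBD), beside 9.53% of all genes tested, and 2 fell (CFD and TNFAIP6), beside 6.39%, shares near those of all genes. In p53-/- cells 1 rose (C5AR1, above background at 48 h alone), beside 3.21% of all genes, and 0 fell, beside 2.04%. At matched times C4B, ITGAM and THBD were also the ones higher with p53, beside 6.75% of all genes, and 3 were lower (CFD, C5AR2 and TNFAIP6), beside 5.92%. The median change of the 33 was 0.12, 0.04 and 0.73 with p53 and -0.13, 0.11 and 0.32 without.

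THBD, thrombomodulin, a membrane protein that also acts on factor I and on C3a and C5a through its partners, was at 1.32, 3.95, 3.89 and 3.38 with p53 and between 0.54 and 1.37 without. C4B, a substrate of C1s, was at -2.63, 0.42, 1.04 and -0.65 with p53 and between -3.26 and -2.74 without. Its near-identical copy C4A had no probe of its own, so the C4B reading may hold both. ITGAM, a chain of the receptor CR3, was above background on the treated p53+/+ arrays alone, at -1.75, -1.79 and -3.76. These 3 genes thus shared the direction of CD46.

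CFD, the protease that cleaves factor B, was at -1.75, -3.27, -3.92 and -3.53 with p53 and at -1.28, -1.54, -2.28 and -2.18 without. TNFAIP6, whose protein TSG-6 binds PTX3 in the matrix, was at -0.45 on the array labelled p53+/+ 0 h and not above background on the 3 treated p53+/+ arrays. Without p53 it was at -1.39, -1.25, 0.14 and 0.93. C5AR2, a receptor of C5a, was above background on 3 p53-/- arrays alone, at -4.11, -4.03 and -4.36 at 0, 24 and 48 h. Between the 0 h arrays 2 genes were higher on the one labelled p53+/+, beside 4.25% of all genes tested. These were C8G (-1.60 against -2.87) and NPTX1, the latter not above background on either. The 1 gene lower there was C5AR2, beside 5.38% of all genes.

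Of 19 cytokines, receptors and factors known to raise complement or PTX3 transcripts, all had a probe and 17 were above background on at least 1 array. The names given from this list were chosen after the values were seen. In p53+/+ cells 4 rose at all 3 times, IL1A, IL1B and STAT3 among them, beside 9.53% of all genes tested. There 1 fell (IL6), beside 6.39%. In p53-/- cells 5 rose (IL1A, IL1B, IL6, LIF and IRF1), beside 3.21%, and 1 fell (IL1R1), beside 2.04%. At matched times 3 were higher with p53 (IL1A, IL1B and LIF), beside 6.75% of all genes, and 1 was lower (IL6), beside 5.92%. The arrays labelled 0 h differed for 6 of the list, all higher on the one labelled p53+/+, beside 4.25% of all genes. IL6, a cytokine of the acute phase response, was at 1.97, -1.97, -1.58 and -1.08 with p53 and at -3.52, 1.08, 2.20 and 2.50 without, so that, as for PTX3, all treated p53+/+ values lay below all treated p53-/- values. IL1B, which induces PTX3 in many cell types, was at 2.67, 4.15, 5.13 and 5.64 with p53 and at -1.39, 1.17, 0.70 and 1.24 without.

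The genes most like each member were sought among the 11828 genes above background on all arrays, for members with a range of at least 2 log2 units, by Pearson r over the 8 arrays. The arrays share 2 genotypes and a time course, so a high r is common and is given as a description. CD46 was nearest to the histone gene H2AC19 (r = 0.998), UNC5B (0.997) and PERP (0.997). C1S was nearest to CD55 (0.97), followed by SMIM14 (0.97) and DGLUCY (0.97). C3 was followed by B3GALT5-AS1 (0.98) and MEF2D (0.97) after CFB, and CFB by SMIM19 (0.98) and LOC729732 (0.98) after C3. CD59 was nearest to TMED7-TICAM2 (0.97), PLXNA3 (0.96) and FOXJ3 (0.96), and PTX3 to ARHGEF10 (0.97), HAUS2 (0.96) and NAP1L1 (0.96). PTX3 and CD46 ran against each other (r = -0.83).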

How the data were processed

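RNA of 8 MCF10A samples was read on single-colour Agilent SurePrint G3 arrays, grouped by the sample labels. The authors deposited, for each array, the processed signal, a linear intensity with the background removed by Agilent Feature Extraction 10.7.3.1 (version per the submitters' processing notes), with the build hg19 in the headers. The deposited table of the series held equal values for 503808 of 503808 entries (relative tolerance 1e-05).

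Of 58717 spots that were not controls, 233 to 370 per array were left out as uneven or outliers, and none was saturated. The remaining spots made 42391 probes, of which 27227 (64.2%) were named. Naming went by RefSeq accession, or else by gene symbol or by a synonym of 1 gene. Log2 signals were taken relative to the 75th percentile of the array and averaged over spots. A probe was well above background where most of its spots were. With 1 array per group no test was run, and the number of arrays limits the precision. A fold against a value not above background was computed against the higher of that value and the lowest signal well above background on the array. For CFI at 48 h with p53 this was the value itself, so its folds are no lower limits. All members and lists were chosen with earlier results of these data known. Genes named were the 9 members, CDKN1A, complement genes past 2-fold at all 3 times of a comparison and above background on the higher side, marker genes, and the 3 genes of highest r. A few genes of these groups are left out of the text. Motifs were searched in RefSeq windows of GRCh38.p14.

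The alternatives were median scaling, no scaling, quantile normalization, normexp correction (offset 50), the mean of all probes, a filter on all arrays, a signal floor, a 3-fold rule, each treated time left out and the p53-/- 0 h array as baseline. Python 3.11.15, numpy 2.4.6, pandas 2.3.3, matplotlib 3.10.9, R 4.3.3 and limma 3.58.1 (for normexp) were used.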

Additional observations from a re-analysis of the deposited data

Results flagged for a closer look

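CFI and PTX3 stood out because their changes from 0 h had one sign at all 3 times in one genotype and the other sign at all 3 in the other. The difference between the genotypes was not tested, as there was 1 array per group. For CFI the log2 changes at 12, 24 and 48 h were -1.84, -1.31 and -1.69 with p53 and 0.0567, 0.103 and 0.43 without, where none reached 2-fold. The values without p53 at 12 and 24 h were smaller than their technical SD of 0.14 and came to -0.016 and -0.047 under normexp correction, so they show no movement beyond that SD. For PTX3 they were -4.16, -6.44 and -4.28 with p53 and 2.22, 1.82 and 2.27 without. Those with p53, for both genes, were taken from the array labelled p53+/+ 0 h.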

How the results depend on the processing

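No paired analysis was possible because the labels give no replicate numbers, with 1 array per genotype and time point. The differences at matched times set arrays of the same time side by side, and no fit with time as a block was run. Of 40 differences of the 9 genes past 2-fold, 37 remained so with median scaling, 36 without scaling, 39 with quantile normalization and 32 with normexp correction. With the mean of all probes 40 remained, a setting that leaves CFB, CD46, CD55, CD59 and PTX3, with 1 probe each, unchanged. Under these settings 0 changed sign. A floor on dim signals moved none of the values, so the 40 that remained with it are no check. The filter on genes above background on all arrays leaves out CFI and alters no value, so the 34 of 34 that remained were fixed in advance. With the p53-/- 0 h array as baseline 13 of 15 remained.

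The count of genes lower at all 3 times in p53+/+ cells, 2 in the report, was 1 (PTX3) with normexp correction, with the 3-fold rule and with genes above background on all arrays, and 1 (CFI) with the p53-/- 0 h array as baseline. The count of genes higher in p53+/+ cells, 1 in the report, was 0 with the 3-fold rule and 2 (C3 and CD46) without the 12 h arrays. The count of genes higher with p53 at matched times, 1 in the report, was 0 without scaling, 0 with the 3-fold rule and 2 (CD46 and CD59) without the 12 h arrays. The count of genes lower with p53 at matched times, 4 in the report, was 1 (PTX3) with the 3-fold rule. The other counts at all 3 times were within 1.5 times the reported ones under every alternative run.

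The median of all genes moved by -0.04 to 0.16 in the comparisons as reported, and by -0.76 to 0.52 without scaling. Dim readings limit CFI, whose differences shrank most under normexp correction. The cause was not tested.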
